A study of Mus musculus with 88 samples.

Results

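Mouse embryonic stem cells without MTF2 were compared with WT cells after 5 h of directed differentiation toward mesoderm. The libraries were those that the labels give as tissue monolayer - mesoderm, timepoint 5hrs and genotype Mtf2 null or wild type. They were 4 of the 88 samples of the series, with 2 libraries per genotype. All 4 carry the strain label E14. Per the study's methods, the Mtf2 null cells are 1 line in which both Mtf2 alleles carry a gene trap, and the WT cells are E14, a line of 129/Ola origin. The methods name a further line, Pcl1-3 WT, as the wild type that matches the background of the Mtf2 null line, and no Pcl1-3 WT library belongs to the mesoderm series. The loss of MTF2 and the line of origin therefore cannot be told apart within these 4 libraries. The cells had been kept in serum with LIF, were seeded as a monolayer, and were then given mid primitive streak medium, which contains Activin A, BMP4, FGF2, and CHIR99021, an inhibitor of GSK3 that activates Wnt/beta-catenin signaling. RNA was depleted of ribosomal RNA and sequenced. Libraries of the same genotypes from undifferentiated cells, from 24 h and 48 h of the same series, and from 5 h in anterior primitive streak medium, which contains no BMP4 and leads toward endoderm, served for comparison. Libraries labelled Jarid2 null, from the same times of both series, also entered the fits that gave the p-values unless stated otherwise. The study calls its duplicates technical, so that p-values measure only the spread between these libraries.

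Polycomb repressive complex 2 (PRC2) trimethylates lysine 27 of histone H3 at the promoters of silent developmental genes. Its core holds EED, SUZ12, and EZH1 or EZH2. MTF2 is an accessory subunit of the PRC2.1 form, which brings the complex to unmethylated CpG-rich DNA, whereas JARID2 marks the PRC2.2 form. In the embryo, the primitive streak forms where Wnt, Nodal, and BMP signals meet, and cells that leave it become mesoderm or definitive endoderm. Embryonic stem cells resemble the earlier naive epiblast, and they reach the streak through a formative state in which the naive genes are switched off.

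Mtf2 (ENSMUSG00000029267, chr5:108065674-108109004, GRCm38) was first examined as a check of the labels. Its level, in counts per 1000000 after TMM scaling (CPM), was 313 and 260 in the WT libraries and 38.2 and 37.4 in the Mtf2 null libraries. The genotypes did not overlap, with a log2 fold change of -2.92 ± 0.17 (SE, n = 2 per genotype, adjusted p = 4.7e-11). No other PRC2 subunit was called among the 13 tested. Jarid2 stood at 639 and 661 CPM in WT and at 799 and 788 CPM in Mtf2 null cells (log2 0.29 ± 0.12, adjusted p = 0.075). Ezh2, the main methyltransferase of the complex in these cells, differed by -0.02 ± 0.12 and Eed by -0.01 ± 0.12 on the log2 scale. The libraries held 10144909 to 16898498 estimated counts. Mitochondrially encoded genes took 1.15 and 0.886% of the counts in WT and 1.4 and 1.43% in Mtf2 null cells, and the 10 most abundant genes took 25 and 26.2% in WT and 30.7 and 32% in Mtf2 null cells. Replicates of a genotype differed by more than counting noise (chi-square per gene of 5.79 in WT and 5.8 in Mtf2 null cells).

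Several genes were read in cells of 1 genotype and nearly absent in the other. Hprt, a purine salvage enzyme that the E14 derivative E14Tg2a is known to lack, was at 0.0903 and 0.418 CPM in WT and at 80.8 and 85.3 CPM in Mtf2 null cells (log2 8.36 ± 0.28). A set of processed gene copies was read less in Mtf2 null than in WT cells, 2 of them at 0 counts, while their parent genes were higher. Eno1b, a copy of the glycolytic enzyme gene Eno1, held 1002 and 1029 CPM in WT and 0 in both Mtf2 null libraries, which is at least 4228-fold lower against a floor of 3 counts per library. The parent Eno1 held 897 and 895 CPM in WT and 2083 and 2227 CPM in Mtf2 null cells, and the sum of parent and copy differed by 0.17 on the log2 scale. Rpl3-ps1, a copy of the ribosomal protein gene Rpl3, was at least 3783-fold lower, and the sum with its parent differed by 0.24. The sums of Ahcy with Gm4737, Kpna2 with Gm10184, and Ftl1 with Ftl1-ps1 differed by 0.33, 0.55, and 0.79. In such pairs the assignment of reads to parent or copy is uncertain, and a large difference of either member is not one of the summed transcript.

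**Figure D1:**
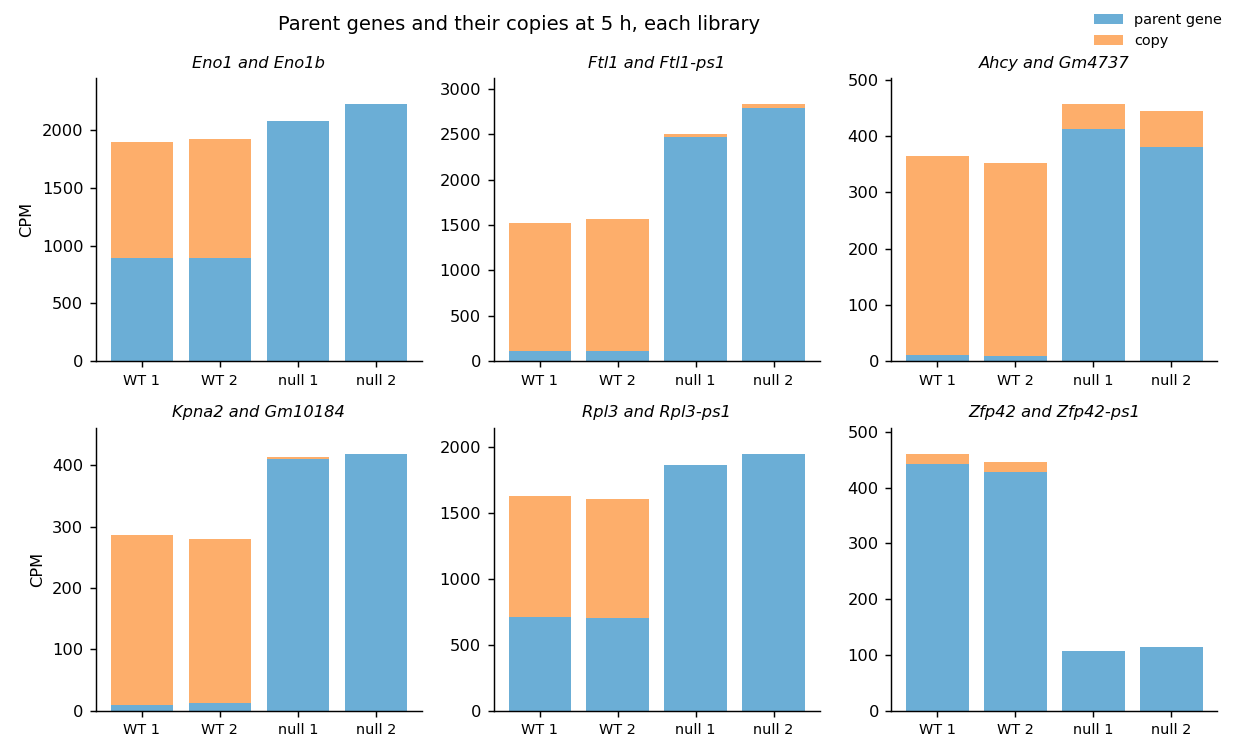
Level in CPM (linear axis from 0) of 6 parent genes (blue) and their processed copies (orange, stacked) in each WT and Mtf2 null library at 5 h. The copies make up most of the sum for Ftl1, Ahcy, and Kpna2 in WT and a small share of it in Mtf2 null cells (44 and 65.4 CPM for Gm4737, the copy of Ahcy), and for Zfp42 the sum itself differs, by -2.03 on the log2 scale.

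The matched line was read in the embryoid body experiment, of which only its undifferentiated cells (day 0) were used here, and whose table was normalized separately, so its values are set beside those of the mesoderm series without a test. For this, every level was scaled to a total of 1000000 over the 15252 genes in both tables (also written CPM). It is a mean of 2 runs of 1 sample for Pcl1-3 WT and of 2 libraries for the undifferentiated cells of the mesoderm series. Undifferentiated levels given beside Pcl1-3 WT therefore differ from the CPM of the same libraries elsewhere. Logarithms were taken after adding 1 CPM. Over the genes with at least 5 CPM on either side of a comparison, the median log2 difference of Pcl1-3 WT was 0.10 from undifferentiated WT and 0.17 from undifferentiated Mtf2 null cells. Of the 417 genes called higher in Mtf2 null cells both at 5 h and undifferentiated, 219 (52.5%) had a Pcl1-3 WT level nearer to Mtf2 null and 198 nearer to WT on the log2 scale. Of the 378 called lower at both times, 194 (51.3%) were nearer to Mtf2 null. For Hprt, Pcl1-3 WT was at 127 CPM, near the 100 of Mtf2 null and far from the 0.565 of WT. The position of Pcl1-3 WT is given below for the genes on which the results turn, and its part in them was not tested.

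Of 18361 genes tested at 5 h, 633 (3.45%) were called higher and 755 (4.11%) lower in Mtf2 null cells, where a call needed an adjusted p under 0.001 together with a log2 size above 1. An unadjusted p under 0.05 was reached by 7036 genes. Between the libraries labelled Jarid2 null and WT at 5 h, 0 of 18361 genes were called, and 2672 reached an unadjusted p under 0.05. Where genotypes are said not to overlap, this describes the libraries of that gene alone. The share of all tested genes that separate in this way is not given here. Among protein-coding genes 1109 of 14280 were called, 560 higher and 549 lower, and among pseudogenes 158 of 1006, of which 141 were lower. Of 345 called genes that shared at least 20% of their 31-base words with another gene, 281 had a tested partner, and for 158 of these the sum with the partner lay within 2-fold. With the 14700 genes that shared under 20%, the calls were 514 higher and 529 lower.

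**Figure D2:**
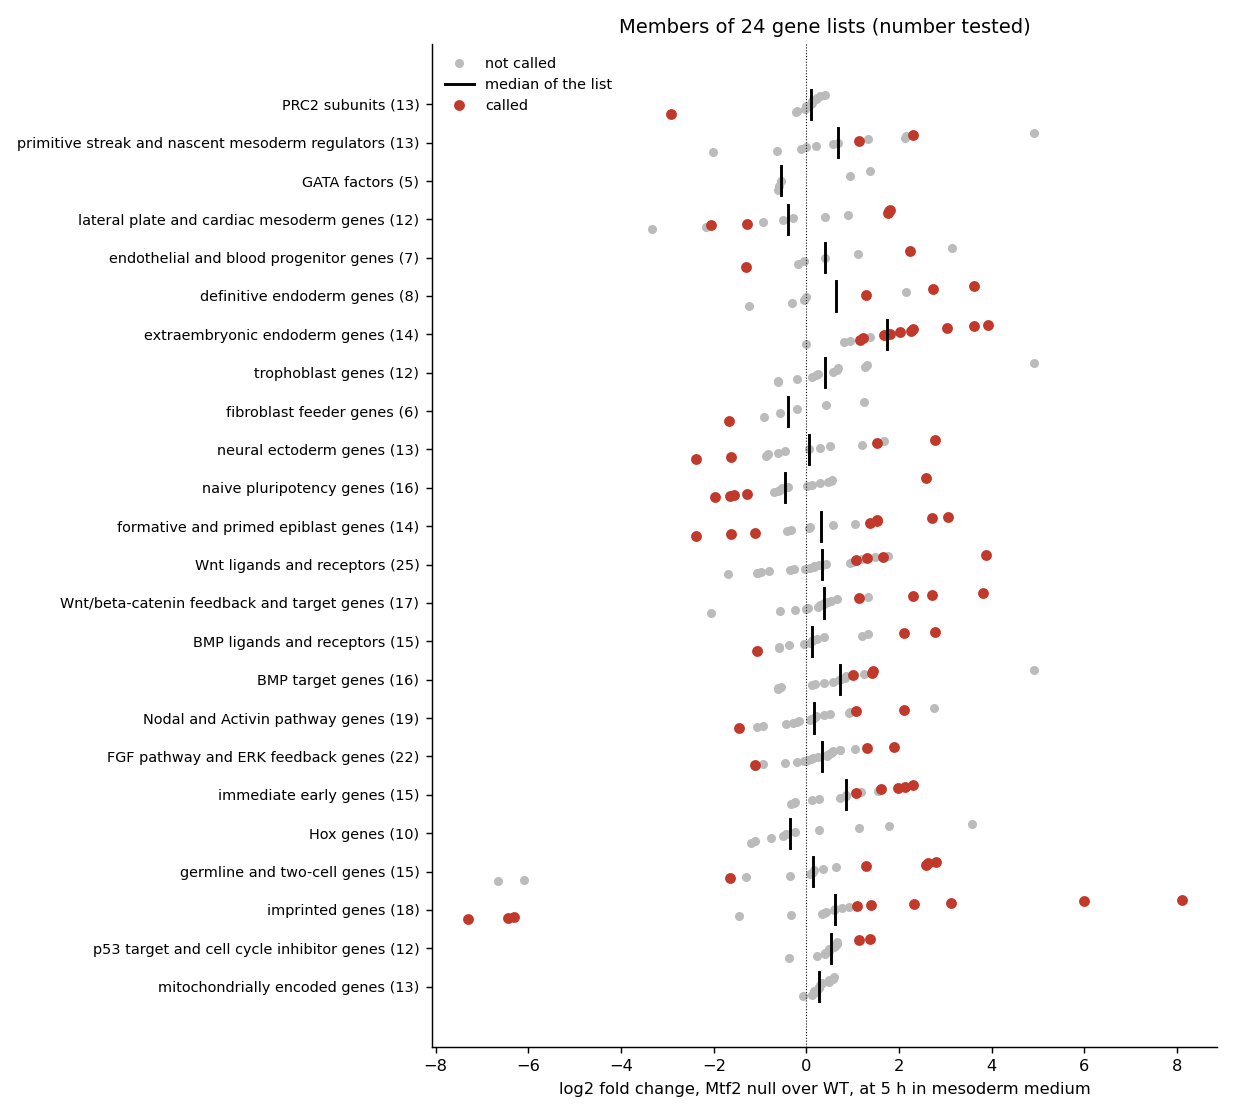
log2 fold change of Mtf2 null over WT at 5 h for every tested member of 24 gene lists (number tested in parentheses). Red points passed the call, grey points did not, and the black bar is the median of the list. The extraembryonic endoderm list has its median at 1.74 with 10 called members, all on the right of 0, and the Hox, GATA, and trophoblast lists have no called member.

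Genes of the extraembryonic endoderm, the epithelium that lines the yolk sac and lays down basement membrane, were higher in Mtf2 null cells. Of 14 members tested, 10 were called higher and 0 lower, with a median log2 fold change of 1.74 beside -0.00571 over all genes tested. Their summed level was 574 to 630 CPM in WT and 1732 to 1828 CPM in Mtf2 null libraries. Ttr, a carrier protein of mature visceral endoderm, had 0 counts in all 4 libraries, and Afp did not pass the filter. In bulk RNA, more cells of a type and more RNA per cell cannot be told apart.

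Cubn (ENSMUSG00000026726, chr2:13276338-13491813) encodes cubilin, an endocytic receptor of the visceral endoderm. It stood at 7.95 and 4.81 CPM in WT and at 101 and 95.2 CPM in Mtf2 null cells (log2 3.92 ± 0.20, adjusted p = 8.3e-12), and the genotypes did not overlap. Amn, the membrane partner of cubilin, moved with it, from 0.452 and 0.836 to 5.61 and 4.9 CPM (log2 3.03 ± 0.39, adjusted p = 6e-06). Dab2, an adaptor that takes such receptors into the cell, was at 3.52 and 3.34 CPM in WT and 14.6 and 13.2 CPM in Mtf2 null cells (log2 2.01 ± 0.18, adjusted p = 4.2e-08). All 3 components of this uptake route were thus called higher. Sox17, an endoderm transcription factor, rose from 0.271 and 0.522 to 5.52 and 4.34 CPM (log2 3.62 ± 0.59, adjusted p = 8.1e-05), and its call was lost without WT replicate 1 (adjusted p = 0.0045) or WT replicate 2 (adjusted p = 0.0013). The factors at the head of this lineage changed less: Gata6 was at 2.35 and 2.09 CPM in WT and 6.05 and 5.62 CPM in Mtf2 null cells (log2 1.38 ± 0.30, adjusted p = 0.0015), and Gata4 at 9.66 and 9.71 against 18.4 and 18.4 CPM (log2 0.93 ± 0.20, adjusted p = 0.0011). Neither was called, although their genotypes did not overlap, and Gata6 was called with all 48 libraries of both series in 1 fit (adjusted p = 0.00014).

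The basement membrane genes Col4a1 and Col4a2 lie head to head on chromosome 8 and encode the paired chains of collagen IV. Col4a1 (chr8:11198423-11312826, minus strand) was at 69.6 and 85.1 CPM in WT and at 389 and 378 CPM in Mtf2 null cells (log2 2.31 ± 0.16, adjusted p = 1.1e-09). Col4a2 (chr8:11312805-11449287, plus strand) was at 34.3 and 42.1 CPM in WT and at 185 and 179 CPM in Mtf2 null cells (log2 2.25 ± 0.16, adjusted p = 1e-09). The pair thus moved together, by nearly the same size, and Lamb1, a laminin chain of the same membrane, was also higher (99.1 and 112 against 350 and 327 CPM, log2 1.68 ± 0.13, adjusted p = 8e-09). Their RefSeq promoter windows, 250 bases before to 50 bases after the start (GRCm38.p6), are shown because they share 78 bases, with starts 21 bases apart, and because MTF2 binds CpG-rich DNA. The windows are chr8:11312777-11313076 for Col4a1 and chr8:11312555-11312854 for Col4a2. They hold 37 and 33 CpG, which are in capitals, beside a median of 20 over the windows of 11851 tested genes. They are not typical of the extraembryonic endoderm list, whose 8 windows have a median of 10 CpG, and the window of Cubn holds 5.
Col4a1: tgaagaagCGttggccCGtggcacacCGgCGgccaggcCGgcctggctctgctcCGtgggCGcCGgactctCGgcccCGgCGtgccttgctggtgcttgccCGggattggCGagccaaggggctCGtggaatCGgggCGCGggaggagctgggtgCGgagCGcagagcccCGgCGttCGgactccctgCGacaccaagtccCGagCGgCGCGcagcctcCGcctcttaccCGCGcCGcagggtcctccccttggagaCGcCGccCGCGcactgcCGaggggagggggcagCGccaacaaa
Col4a2: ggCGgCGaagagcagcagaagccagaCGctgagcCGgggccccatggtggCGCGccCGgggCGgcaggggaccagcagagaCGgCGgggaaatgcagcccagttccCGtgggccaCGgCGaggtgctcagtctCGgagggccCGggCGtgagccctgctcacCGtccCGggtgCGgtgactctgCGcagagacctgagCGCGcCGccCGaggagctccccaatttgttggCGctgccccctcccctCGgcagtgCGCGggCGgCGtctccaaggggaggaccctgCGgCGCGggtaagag

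Genes of this list that were called both at 5 h and undifferentiated numbered 10, and for all 10 the Pcl1-3 WT level was nearer to WT than to Mtf2 null. Cubn was at 1.69 CPM in Pcl1-3 WT, at 14.6 in undifferentiated WT, and at 241 in undifferentiated Mtf2 null cells. Col4a1 was at 48, 96.3, and 709 CPM, and Dab2 at 2.91, 6.54, and 54.9 CPM in the same order. Gata6, at 1.3, 2.63, and 20.8 CPM, and Gata4, at 0.874, 10.8, and 41 CPM, were also nearer to WT, whereas Sparc, a matrix protein of parietal endoderm, was at 431 CPM in Pcl1-3 WT, nearer to the 350 of Mtf2 null than to the 109 of WT.

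Of 8 definitive endoderm genes tested, 3 were called higher and 0 lower (median 0.63). Besides Sox17 they included Prdm1, a repressor of germ cell and endoderm precursors, at 8.13 and 6.48 against 19.1 and 16.6 CPM (log2 1.28 ± 0.22, adjusted p = 0.00016). Prdm1 kept its call only when Mtf2 null replicate 2 was the library left out (adjusted p = 0.0013 to 0.0064 without another). Foxa2, a pioneer factor of endoderm and streak, was at 0.542 and 0.209 CPM in WT and 1.87 and 1.63 CPM in Mtf2 null cells and did not pass (log2 2.15 ± 0.55, adjusted p = 0.0051), and Cxcr4, a receptor used to sort definitive endoderm, differed by -0.02 ± 0.44. Cer1 did not pass the filter. Sox17 and Prdm1 had Pcl1-3 WT levels nearer to WT.

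**Figure D3:**
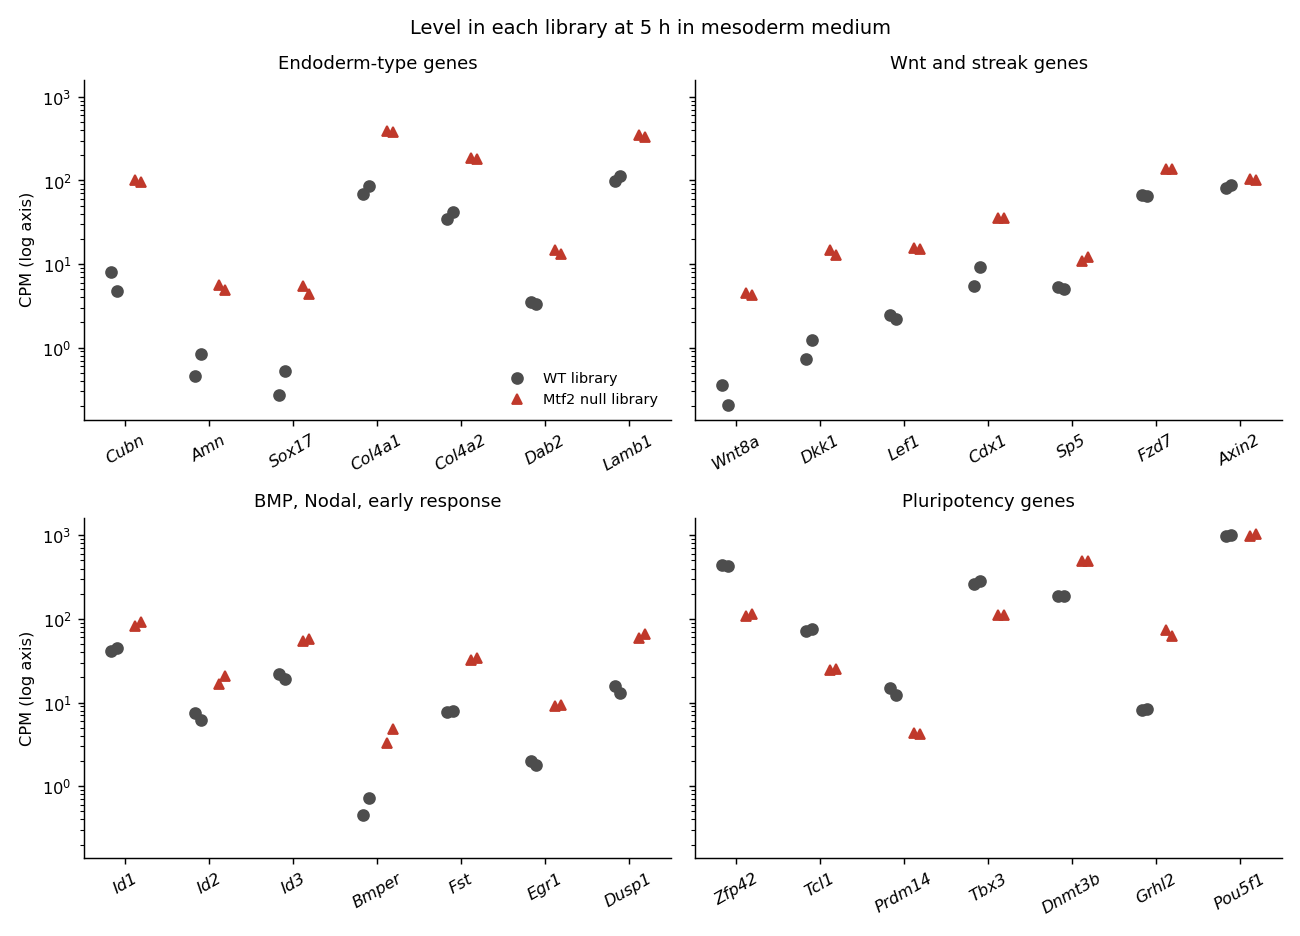
Level in CPM (log axis) of 28 genes in each WT (grey circles) and Mtf2 null (red triangles) library at 5 h, in 4 groups. Cubn, Col4a1, Wnt8a, Dkk1, Lef1, and Grhl2 lie higher in both Mtf2 null libraries, Zfp42, Tcl1, Prdm14, and Tbx3 lie lower, and Pou5f1 overlaps between genotypes.

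In the Wnt pathway, the ligands and receptors had 4 members called higher and 0 lower of 25 tested (median 0.34), and the feedback and target genes 4 higher and 0 lower of 17 (median 0.38). Wnt8a, a ligand of the early streak, was at 0.361 and 0.209 CPM in WT and at 4.54 and 4.26 CPM in Mtf2 null cells (log2 3.88 ± 0.56, adjusted p = 2.9e-05). Dkk1, a secreted inhibitor that Wnt signaling itself induces, was at 0.723 and 1.25 CPM in WT and 14.9 and 12.9 CPM in Mtf2 null cells (log2 3.81 ± 0.37, adjusted p = 2.3e-07). Lef1, a nuclear partner of beta-catenin, was at 2.44 and 2.19 against 15.7 and 15.1 CPM (log2 2.72 ± 0.30, adjusted p = 9.3e-07). Ligand, feedback inhibitor, and nuclear factor were thus each called higher. Sp5, a direct target of beta-catenin, was at 5.33 and 5.01 CPM in WT and 10.9 and 12 CPM in Mtf2 null cells (log2 1.14 ± 0.22, adjusted p = 0.00065). Cdx1, a target of Wnt and retinoic acid, was at 5.51 and 9.19 against 35.9 and 35.5 CPM (log2 2.29 ± 0.20, adjusted p = 1.2e-07). Among the receptors, Fzd6 (log2 1.65 ± 0.24), Ror2 (log2 1.30 ± 0.13), and Fzd7 (log2 1.08 ± 0.13) were called higher, and Fzd5, at 167 and 166 CPM in WT and 84.6 and 83.2 CPM in Mtf2 null cells, stood just below the size asked for (log2 -0.99 ± 0.11).

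Other targets did not pass the test. Axin2, the feedback inhibitor most used as a Wnt readout, was at 82.2 and 88.6 CPM in WT and 103 and 102 CPM in Mtf2 null cells and was not called (log2 0.26 ± 0.10, adjusted p = 0.064). Tcf7 differed by 0.04 ± 0.13 and Ccnd1 by 0.29 ± 0.14 on the log2 scale. The calls of Wnt8a (adjusted p = 0.0015) and Fzd6 (adjusted p = 0.0014) were lost without WT replicate 2. The call of Sp5 was lost without any of the 4 libraries (adjusted p = 0.0034 without Mtf2 null replicate 1 to 0.011 without WT replicate 2), and also with all 48 libraries in 1 fit (adjusted p = 0.0025). In Pcl1-3 WT undifferentiated cells, Lef1 was at 39.6 CPM, above both undifferentiated WT (1.94) and undifferentiated Mtf2 null cells (3.01), and Dkk1 was at 0.0762 CPM, nearer to the 0.198 of WT than to the 1.38 of Mtf2 null. Among the receptors called higher, Fzd6 (10.1 CPM, against 5.21 in WT and 10.6 in Mtf2 null) and Ror2 (49.9 CPM, against 17.8 and 28.9) were nearer to Mtf2 null. Fzd7 (93.7 CPM, against 87.8 and 123) was nearer to WT.

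The RefSeq promoter windows of Dkk1 and Sp5 are shown with matches to CTTTGAT or CTTTGAA, the core recognized by TCF/LEF factors, read on both strands and set in capitals. Dkk1 (chr19:30549447-30549746, minus strand) holds CTTTGAA 117 bases before the RefSeq start, and Sp5 (chr2:70474673-70474972, plus strand) holds CTTTGAT 104 bases before it. Of the 10 windows matched in the feedback and target list, 3 hold such a match, the third being that of T, which was not called. Outside it, the window of Cubn holds 2. The RefSeq start of Dkk1 lies 169 bases from its start in GENCODE.
Dkk1: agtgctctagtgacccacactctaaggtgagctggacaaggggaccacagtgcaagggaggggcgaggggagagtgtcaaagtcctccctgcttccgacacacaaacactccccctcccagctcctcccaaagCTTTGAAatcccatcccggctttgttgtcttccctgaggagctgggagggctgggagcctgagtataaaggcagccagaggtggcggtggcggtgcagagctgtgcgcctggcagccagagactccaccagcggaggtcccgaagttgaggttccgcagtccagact
Sp5: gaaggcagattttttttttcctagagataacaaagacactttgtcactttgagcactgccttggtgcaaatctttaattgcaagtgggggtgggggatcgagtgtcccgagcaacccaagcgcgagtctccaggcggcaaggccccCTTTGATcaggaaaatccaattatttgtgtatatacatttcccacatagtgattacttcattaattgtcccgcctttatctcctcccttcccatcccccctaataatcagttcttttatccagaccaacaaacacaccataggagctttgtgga
Either match occurred in 6.15% of the 11851 windows of tested genes, in 5.84% of the 445 windows of genes called higher, and in 5.35% of the 430 of genes called lower. The promoters of the called genes were likewise close to the others in CpG content, with a median of 18 CpG for genes called higher and 20 for genes called lower beside 20 for all. No window was matched for 188 genes called higher and 325 called lower.

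Of 13 tested regulators of the primitive streak and nascent mesoderm, 2 (Cdx1 and Sp5) were called higher and 0 lower, with a median of 0.68. Their summed level was 29.8 to 30.4 CPM in WT and 73 to 76.3 CPM in Mtf2 null libraries. Of the defining factors, 3 that passed the filter are given. T (brachyury) was at 0.903 and 1.67 CPM in WT and 2.14 and 4.12 CPM in Mtf2 null cells (log2 1.33 ± 0.44, adjusted p = 0.028), Eomes at 7.41 and 7.21 against 12.2 and 11.2 CPM (log2 0.68 ± 0.22, adjusted p = 0.026), and Mixl1 at 0.903 and 0.94 against 0.534 and 0.64 CPM (log2 -0.63 ± 0.51, adjusted p = 0.4). For T and Eomes both Mtf2 null libraries lay above both WT libraries, and for Mixl1 both lay below, but none passed. Mesp1, Tbx6, Msgn1, Gsc, Lhx1, Cdx4, Hoxb1, and Fgf8 did not pass the filter, although the cells carry the label mesoderm.

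For BMP signaling, whose ligand BMP4 was in the medium, 3 of 16 target genes were called higher and 0 lower (median 0.73). All 3 were inhibitors of DNA binding, the classical direct BMP targets. Id3 was at 22.2 and 19.3 CPM in WT and 54.2 and 56.9 CPM in Mtf2 null cells (log2 1.42 ± 0.16, adjusted p = 1e-06), Id2 at 7.59 and 6.16 against 16.8 and 20.5 CPM (log2 1.44 ± 0.19, adjusted p = 8e-06), and Id1 at 41.6 and 45.5 against 82.6 and 91.6 CPM (log2 1.00 ± 0.16, adjusted p = 5.1e-05). The genotypes did not overlap for any of them. Id1 stood at the limit of size and fell to 0.94 without Mtf2 null replicate 2 or WT replicate 1. Its call was also lost with a replicate block (1.00), without the filter on low counts (0.98), and with the 4 libraries alone (0.98). Of 15 ligands, receptors, and antagonists, 2 were called higher and 1 lower (median 0.13). Fst, which encodes follistatin, an antagonist of Activin, was at 7.77 and 7.83 CPM in WT and 32.6 and 34.3 CPM in Mtf2 null cells (log2 2.10 ± 0.20, adjusted p = 1e-07). Bmper, a secreted BMP modulator, was at 0.452 and 0.731 against 3.29 and 4.76 CPM (log2 2.77 ± 0.48), and endogenous Bmp4 was lower, at 42.5 and 36.2 against 18.2 and 19.4 CPM (log2 -1.07 ± 0.19). Bmper kept its call only when Mtf2 null replicate 1 was left out, and Bmp4 only when WT replicate 2 was left out (adjusted p = 0.002 to 0.0077 and 0.0034 to 0.0059 otherwise). Fst, Bmper, Id2, and Id3 had Pcl1-3 WT levels nearer to WT. Id1, at 3 CPM in Pcl1-3 WT against 108 in WT and 56 in Mtf2 null, and Bmp4, at 6.22 against 61.8 and 37.5, were nearer to Mtf2 null and below both.

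The Nodal and Activin pathway had 2 members called higher and 1 lower of 19 (median 0.16). Nodal itself was at 70.2 and 68.3 CPM in WT and 123 and 143 CPM in Mtf2 null cells, without overlap and just under the size of a call (log2 0.94 ± 0.12, adjusted p = 7.7e-06). Its co-receptor gene Tdgf1 was called higher (204 and 184 against 406 and 402 CPM, log2 1.06 ± 0.18, adjusted p = 0.00012), and Inhbb, which encodes an Activin subunit, lower (28.1 and 30.5 against 9.7 and 11.6 CPM, log2 -1.45 ± 0.22, adjusted p = 3e-05). Tdgf1-ps1, by its name a pseudogene of Tdgf1, went the other way, at 27.3 and 27.4 CPM in WT and 0.089 and 0 CPM in Mtf2 null cells. Tdgf1 stood close to the size of a call, and its sum with Tdgf1-ps1 was not tested. Lefty2, a feedback inhibitor of Nodal, was at 70.7 and 63.5 CPM in WT and 33 and 30.8 CPM in Mtf2 null cells (log2 -1.07 ± 0.23) and missed the call (adjusted p = 0.0013), which it passed with DESeq2 (adjusted p = 1.8e-05). Tdgf1 lost its call without any 1 of the 4 libraries (adjusted p = 0.0015 to 0.0046) and Inhbb without Mtf2 null replicate 1 (adjusted p = 0.0016). In the FGF pathway, 2 of 22 members were called higher and 1 lower (median 0.34): Fgfr2, a receptor, at 4.34 and 3.24 against 13.5 and 14.5 CPM (log2 1.88 ± 0.20), Dusp14, a phosphatase, with log2 1.30 ± 0.22, and Etv5, a transcription factor downstream of ERK, at 379 and 387 against 184 and 174 CPM (log2 -1.10 ± 0.14). The ERK feedback genes Spry2 (-0.01 ± 0.12) and Dusp6 (0.24 ± 0.14) were not called. In Pcl1-3 WT, Fgfr2 (15.4 CPM, against 4.32 in WT and 15.5 in Mtf2 null) and Dusp14 (10.1 CPM, against 2.73 and 5.36) were nearer to Mtf2 null. Etv5 (272 CPM, against 278 and 179) was nearer to WT. Dusp14 kept its call only without Mtf2 null replicate 1 (adjusted p = 0.0023 to 0.004 otherwise).

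Immediate early genes, which respond to growth factors and to handling of the cells, had 5 of 15 members called higher and 0 lower (median 0.86). Egr1 was at 1.99 and 1.78 CPM in WT and 9.17 and 9.31 CPM in Mtf2 null cells (log2 2.29 ± 0.33, adjusted p = 2.5e-05), Dusp1 at 15.8 and 13.1 against 59.6 and 65.9 CPM (log2 2.12 ± 0.26, adjusted p = 4e-06), and Myc at 35.1 and 32.6 against 73.2 and 68.9 CPM (log2 1.07 ± 0.19, adjusted p = 0.00017). The genotypes did not overlap for these genes. Jun (log2 1.97 ± 0.36) and Zfp36 (log2 1.61 ± 0.28) completed the called members, while Fos differed by 1.18 ± 0.55 (adjusted p = 0.12) and Ier2 by -0.26 ± 0.14 (adjusted p = 0.19). Myc and Jun lost their calls without any 1 of the 4 libraries (adjusted p = 0.0013 to 0.0052 and 0.0015 to 0.0068), Egr1 without WT replicate 2 (adjusted p = 0.0011), and Zfp36 kept it only without Mtf2 null replicate 2 (adjusted p = 0.0032 to 0.0059 otherwise).

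Of 16 naive pluripotency genes, 1 was called higher and 4 lower (median -0.46). Zfp42 (ENSMUSG00000051176, chr8:43295063-43306980), also known as Rex1 and a marker of the naive state, was at 443 and 428 CPM in WT and 107 and 115 CPM in Mtf2 null cells (log2 -1.97 ± 0.14, adjusted p = 1.9e-09). Tcl1, an AKT co-activator, was at 71.7 and 75.3 against 24.3 and 25.2 CPM (log2 -1.57 ± 0.21, adjusted p = 9.3e-06), and Prdm14, a repressor that guards naive and germ cell identity, at 14.9 and 12.2 against 4.36 and 4.26 CPM (log2 -1.65 ± 0.30, adjusted p = 0.00024). Tbx3, at 260 and 282 against 111 and 112 CPM (log2 -1.28 ± 0.17), was the remaining gene called lower, and Dppa3, at 0.813 and 0.627 against 4.54 and 4.34 CPM (log2 2.59 ± 0.37), was called higher. The central factors changed less: Nanog was at 267 and 254 CPM in WT and 166 and 158 CPM in Mtf2 null cells (log2 -0.69 ± 0.12, adjusted p = 0.00017), Esrrb differed by -0.58 ± 0.16, and Pou5f1 by 0.01 ± 0.15. Prdm14 lost its call without any 1 of the 4 libraries (adjusted p = 0.0011 to 0.0066). In Pcl1-3 WT, Zfp42 was at 67.1 CPM, near the 90.5 of undifferentiated Mtf2 null and not the 552 of undifferentiated WT cells, and Dppa3 (49.6 CPM) was also nearer to Mtf2 null (12.7) than to WT (2.41).

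The genes that mark the formative and primed epiblast were split, with 5 of 14 called higher and 3 lower (median 0.32). Of the genes of de novo DNA methylation, Dnmt3a did not pass (79.3 and 86.4 against 85.3 and 87.1 CPM, log2 0.06 ± 0.10, adjusted p = 0.73) and the others in the list were higher: Dnmt3b was at 190 and 190 CPM in WT and 493 and 495 CPM in Mtf2 null cells (log2 1.38 ± 0.11, adjusted p = 9.5e-09), and its cofactor Dnmt3l at 195 and 193 against 554 and 563 CPM (log2 1.53 ± 0.13, adjusted p = 3.4e-08). Grhl2, an epithelial factor, was at 8.04 and 8.36 against 73.2 and 63.1 CPM (log2 3.05 ± 0.14, adjusted p = 1.6e-12). By contrast Otx2, a defining factor of the formative state, was at 2.35 and 2.72 CPM in WT and 0.178 and 0.711 CPM in Mtf2 null cells (log2 -2.39 ± 0.45, adjusted p = 0.00042), and Etv5 and Zic2 (log2 -1.62 ± 0.29) were also lower. Pou3f1 (log2 1.52 ± 0.27) and Lef1 completed the called members, and Fgf5 was at or under 0.569 CPM in all 4 libraries. Among 13 neural ectoderm genes, 2 were called higher and 2 lower (median 0.05), and the largest change was that of Sox11, at 10.7 and 12.4 CPM in WT and 75.6 and 82.5 CPM in Mtf2 null cells (log2 2.77 ± 0.17, adjusted p = 1.4e-10). Leaving out 1 library ended the call of Otx2 (adjusted p = 0.0028 to 0.0099, not without Mtf2 null replicate 2), of Pou3f1 (0.0019 to 0.01, not without Mtf2 null replicate 1), and of Zic2 (0.01 without Mtf2 null replicate 2 and 0.0054 without WT replicate 2). In Pcl1-3 WT, Grhl2 (34.2 CPM, against 10.8 in WT and 83.8 in Mtf2 null) and Sox11 (97 CPM, against 22.4 and 81.5) were nearer to Mtf2 null, and Dnmt3l (265 CPM, against 227 and 434) was nearer to WT.

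Later mesodermal genes gave no common direction. Of 12 lateral plate and cardiac genes tested, 3 were called higher and 2 lower (median -0.40): Tbx20, a cardiac factor, at 2.98 and 3.13 against 11.3 and 9.88 CPM (log2 1.79 ± 0.23), Pdgfra, a receptor of paraxial and lateral mesoderm that also marks primitive endoderm, at 2.98 and 5.12 against 14.2 and 13.9 CPM (log2 1.80 ± 0.24), Snai1, a driver of the epithelial to mesenchymal transition, with log2 1.77 ± 0.25, and on the lower side Tbx3 and the chromatin remodeler gene Smarcd3 (log2 -2.05 ± 0.35). Among 7 endothelial and blood progenitor genes, Runx1, a blood factor, was called higher (1.81 and 1.36 against 7.56 and 7.53 CPM, log2 2.24 ± 0.27) and Pecam1 lower (36.9 and 38.1 against 16.2 and 14.1 CPM, log2 -1.31 ± 0.18), with a median of 0.39. Nkx2-5, Hand2, and Kdr did not pass the filter. Snai1 lost its call without WT replicate 1 (adjusted p = 0.0015), Pecam1 without Mtf2 null replicate 2 (adjusted p = 0.0012), and Smarcd3 kept it only without WT replicate 2 (adjusted p = 0.0024 to 0.0045 otherwise). Tbx20, Pdgfra, and Runx1 had Pcl1-3 WT levels nearer to WT, and Smarcd3 nearer to Mtf2 null.

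No call was made among the 10 Hox genes tested of 39 (median -0.35), the 5 GATA factors tested (median -0.56), and the 12 trophoblast genes (median 0.41). Over all genes tested 7.56% were called, so that lists this small can hold none. The GATA median reflects Gata1, Gata2, and Gata3, at no more than 2.4 CPM, whereas Gata4 and Gata6 were higher without a call, as given above. Krt18, a keratin of simple epithelia in the trophoblast list, was at 9.48 and 7.94 CPM in WT and 20.8 and 21.1 CPM in Mtf2 null cells and missed the call (log2 1.26 ± 0.28, adjusted p = 0.0017), which it passed with DESeq2 (adjusted p = 3.3e-05). Of the fibroblast genes that would show feeder cells, 6 of 11 were tested and 1 was called: Vim, an intermediate filament gene that embryonic stem cells express too, was at 146 and 140 CPM in WT and 40.3 and 49.1 CPM in Mtf2 null cells (log2 -1.67 ± 0.21, adjusted p = 4.7e-06). Col1a2, Col3a1, Postn, Lum, and Dcn did not pass the filter. Col1a1 stood at no more than 1.17 CPM in any of the 4 libraries.

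Imprinted genes, which are read from the allele of 1 parent and can be lost in culture, had 6 of 18 members called higher and 3 lower (median 0.61). Noncoding RNAs of the Dlk1-Dio3 cluster were nearly absent in Mtf2 null cells: Meg3 was at 52.6 and 66.8 CPM in WT and 0.89 and 0.498 CPM in Mtf2 null cells (log2 -6.44 ± 0.33), Rian at 111 and 97.5 against 0.623 and 1.85 CPM (log2 -6.32 ± 0.26), and Mirg, with 1 count in the Mtf2 null libraries together, differed 201-fold (95% interval of the ratio 35.6 to 7988, counting error only). In the opposite direction Plagl1, a zinc finger gene, had 1 count in the WT libraries together and 16.6 and 16 CPM in Mtf2 null cells, a ratio of 335 (95% interval 59.8 to 13276), and Nnat rose from 0.181 and 0.209 to 12.5 and 13.3 CPM (log2 5.98 ± 0.48). H19 was called higher (log2 3.12 ± 0.61) but lost its call without any 1 of the 4 libraries (adjusted p = 0.0022 to 0.014). Plagl1 and Nnat were nearer to Mtf2 null in Pcl1-3 WT, at 18.1 and 10.5 CPM, and Meg3, Rian, and Mirg were not listed in that table.

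Among 15 germline and 2-cell genes, 4 were called higher and 1 lower (median 0.14). Tex15, which acts in the silencing of transposons in male germ cells, was at 7.59 and 6.79 CPM in WT and 52.6 and 47.3 CPM in Mtf2 null cells (log2 2.79 ± 0.28, adjusted p = 2.4e-07), and the meiotic gene Sycp1 at 0.994 and 0.94 against 7.21 and 4.9 CPM (log2 2.63 ± 0.51), whose call was lost without any 1 of the 4 libraries (adjusted p = 0.0012 to 0.0096). Of 12 p53 target and cell cycle inhibitor genes, 2 were called higher, Trp53inp1 (95.7 and 81.1 against 230 and 230 CPM, log2 1.38 ± 0.17) and Perp (26.4 and 24.9 against 58 and 54.6 CPM, log2 1.13 ± 0.14), with a median of 0.54, and the best known target Cdkn1a was not (log2 0.49 ± 0.16, adjusted p = 0.022). In Pcl1-3 WT, Trp53inp1 (551 CPM, against 175 in WT and 343 in Mtf2 null) was nearer to Mtf2 null, and Perp (9.99 CPM, against 20.3 and 78.8) was nearer to WT. The 13 mitochondrially encoded genes had no call (median 0.28).

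The largest changes at 5 h by the naming rule were close to all or none. Among the 10 genes highest in Mtf2 null cells by the naming rule were Hprt, Plagl1, Nnat, Olig2, a neural factor with 1 count in the WT libraries together and 29.9 and 30.4 CPM in Mtf2 null cells, Nod1, a sensor of bacterial peptides at 0.542 and 0.522 against 33.9 and 34.8 CPM (log2 5.98 ± 0.21), Ubd, with 0 counts in WT (at least 17.4-fold higher), Gm8909 (at least 29.8-fold higher), Pnp2, Gm42047, and Gm47761. All 10 genes lowest by the rule had 0 counts in both Mtf2 null libraries, and apart from Eno1b they were pseudogenes. Besides Rpl3-ps1 and Zfp42-ps1 these were Gm45315, Gm9825, Gm13443, Atp6v0c-ps2, Gm4864, Gm21742, and Gm10120, at least 49.5-fold to at least 209-fold lower. Olig2 (5.84 CPM, against 0.069 in WT and 19.7 in Mtf2 null) and Nod1 (26.5 CPM, against 1.53 and 31.5) were nearer to Mtf2 null in Pcl1-3 WT, and so was Galnt6 (75.2 CPM, against 2.58 and 99.7), named after its values were seen, which stood at 2.26 and 2.3 CPM in WT and 82.8 and 84.1 CPM in Mtf2 null cells at 5 h. Ubd and Gm8909, at 0 and 0.0762 CPM in Pcl1-3 WT, were nearer to WT. Among the lowest genes, Rpl3-ps1 (679 CPM, against 1468 in WT and 0.458 in Mtf2 null) and Gm9825 (40 CPM, against 40.8 and 0) were nearer to WT. So were Gm21742 (15.4 CPM, against 15.2 and 0.373) and Atp6v0c-ps2 (8.49 CPM, against 19.1 and 0.354). Eno1b, Zfp42-ps1, Gm45315, Gm13443, Gm4864, and Gm10120 were nearer to Mtf2 null.

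Whether these differences were already present before induction was examined in the undifferentiated libraries of the same series, which share no library with the 5 h comparison. There, 2047 of the 18361 genes were called (11.1%). Of the 1388 calls at 5 h, 893 were also called undifferentiated, which is 64.3% of the 5 h calls and 43.6% of the undifferentiated ones, and 891 of them moved in the same direction. In the undifferentiated libraries of the endoderm series 2118 of 19261 genes were called (11.0%). Of the 1386 genes called at 5 h that were tested there, 875 were called, which is 63.1% of the 5 h calls and 41.7% of the others. A further 427 genes called at 5 h were called undifferentiated in neither series, 135 higher and 292 lower. Missing the call there does not show that a difference was absent. Of these 427 genes, 149 were called in the interaction test that follows. Of all 1388 calls at 5 h, 1323 had the same sign in the undifferentiated cells of the mesoderm series.

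The change of the Mtf2 null effect between undifferentiated cells and 5 h was then tested as an interaction, at an adjusted p under 0.05 and a log2 difference above 1 in size. The effect shifted upward for 382 genes (2.08%) and downward for 715 (3.89%). For 725 of these 1097 genes the difference between genotypes was smaller at 5 h than before, and for 372 it was larger. Between the genotypes, 413 were called undifferentiated and no longer at 5 h, 161 at 5 h alone, 66 at both times, and 457 at neither. The Wnt feedback and target list had 3 upward shifts and 0 downward, the immediate early list 4 and 1, the naive list 0 and 7, and the extraembryonic endoderm list 0 and 4.

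**Figure D4:**
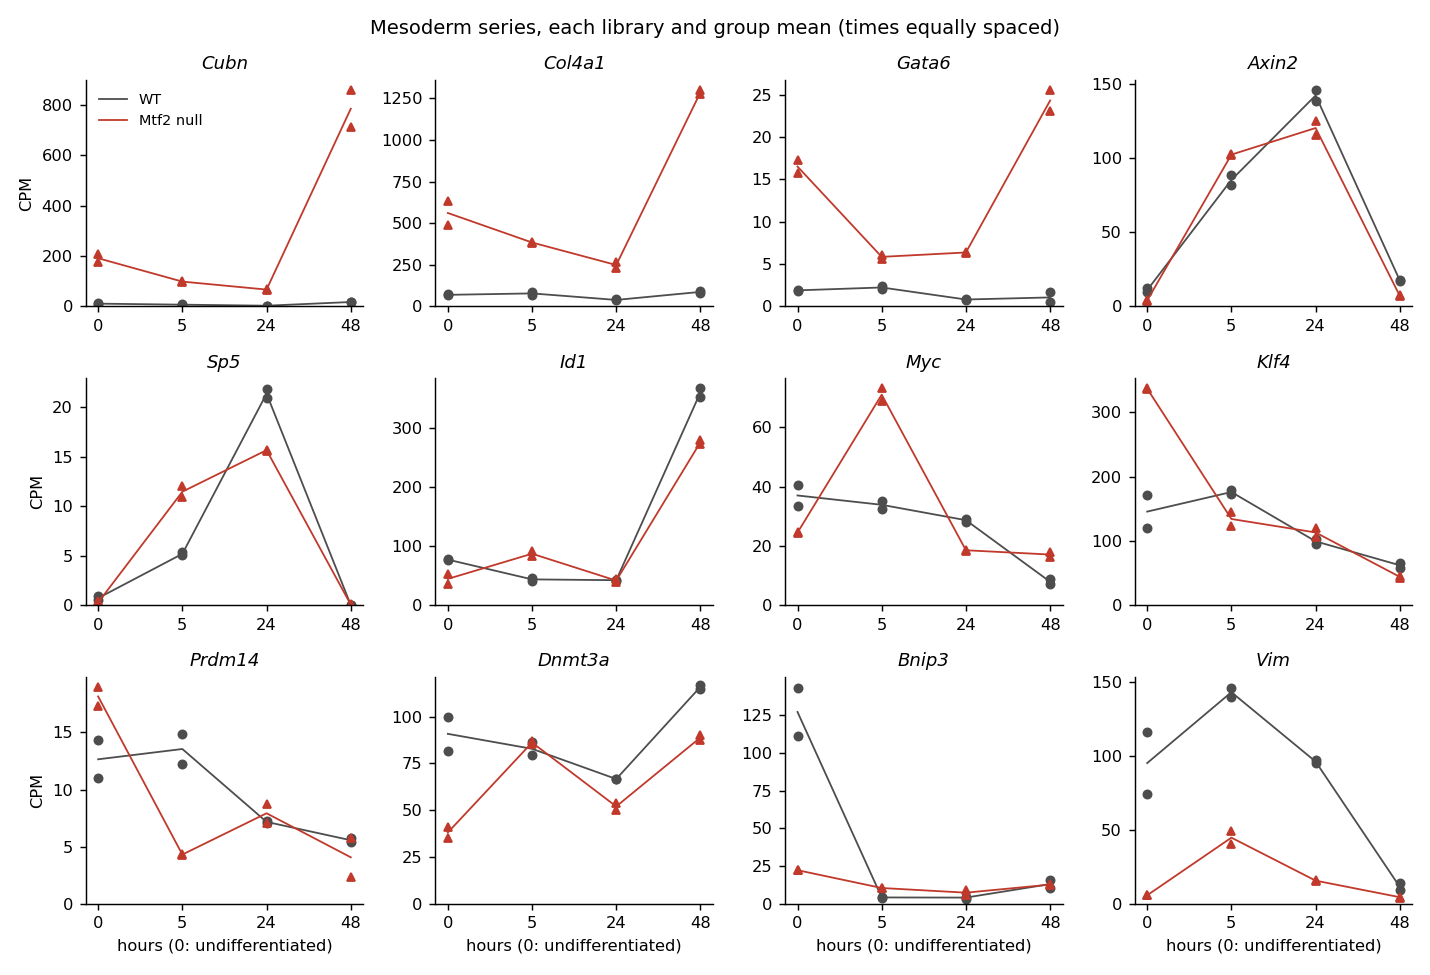
Level in CPM (linear axis from 0) of 12 genes in each WT (grey) and Mtf2 null (red) library of the mesoderm series, undifferentiated and at 5, 24, and 48 h (times equally spaced), with lines through the group means. Axin2 is lower in Mtf2 null cells before induction and not at 5 h, Klf4 is higher before induction and not at 5 h, and Cubn and Col4a1 are higher in Mtf2 null cells at all 4 times.

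Of the 17 Wnt feedback and target genes, Axin2, Sp5, and Lef1 shifted upward. The others did not pass, with values from -0.77 for Sfrp1 to 1.62 for T and 1.63 for Sfrp5. Between these lay -0.43 for Cdx1, 0.03 for Notum, 0.16 for Tcf7, and 0.93 for Dkk1. The median over all 17 genes was 0.66. Axin2 stood at 12.5 and 9.37 CPM in undifferentiated WT and 3.55 and 4.35 CPM in undifferentiated Mtf2 null cells, and rose to 82.2 and 88.6 and to 103 and 102 CPM by 5 h, a shift of the Mtf2 null effect by 1.73 ± 0.20 (adjusted p = 1.2e-05). Sp5 shifted by 2.59 ± 0.59 (adjusted p = 0.0063), from levels of 0.0934 to 0.887 CPM in all undifferentiated libraries, and Lef1 by 1.92 ± 0.52 (adjusted p = 0.015), from 1.58 and 1.19 CPM in WT and 2.89 and 1.87 CPM in Mtf2 null cells. Sp5 lost this call without replicate 1 of either undifferentiated genotype (adjusted p = 0.077 and 0.098), and Lef1 without WT replicate 2 at 5 h (adjusted p = 0.052), undifferentiated WT replicate 1 (0.076), or undifferentiated Mtf2 null replicate 2 (0.057). Fzd10, a Wnt receptor gene, shifted by 1.53 ± 0.22. Outside this pathway, Id1 fell in WT from 77.9 and 76.3 to 41.6 and 45.5 CPM and rose in Mtf2 null cells from 36.3 and 52.4 to 82.6 and 91.6 CPM, a shift of 1.80 ± 0.22 (adjusted p = 2.5e-05). Myc shifted by 1.67 ± 0.27 (adjusted p = 0.00032), Egr1 by 2.43 ± 0.45 (adjusted p = 0.0012), Dnmt3a by 1.32 ± 0.15 (adjusted p = 1.3e-05), Pou3f1 by 1.79 ± 0.37 (adjusted p = 0.0028), and Tdgf1 by 1.16 ± 0.25 (adjusted p = 0.0034). For Tdgf1 the shift lay in a smaller fall, from 973 and 1085 to 406 and 402 CPM in Mtf2 null cells and from 1012 and 1196 to 204 and 184 CPM in WT. Tdgf1-ps1 fell in WT too, from 143 CPM to 27.3 and 27.4 CPM, and was nearly absent in Mtf2 null cells at both times. Dusp1 shifted by 1.19, a call that was lost without any 1 of the 8 libraries (adjusted p = 0.058 to 0.13).

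Of the 16 naive genes, 7 shifted downward, and of those that did not pass, Zfp42 (0.49), Fgf4 (0.21), and Dppa3 (0.07) had values above 0. Klf4 stood at 171 and 120 CPM in undifferentiated WT and 336 and 338 CPM in undifferentiated Mtf2 null cells, and at 179 and 173 and 145 and 123 CPM at 5 h, a shift of -1.61 ± 0.21 (adjusted p = 5.7e-05). Klf5 went from 1136 and 1054 to 446 and 443 CPM in Mtf2 null cells while WT kept 410 and 281 and then 423 and 397 CPM (shift -1.55 ± 0.22, adjusted p = 8e-05), and Esrrb shifted by -1.41 ± 0.23, Prdm14 by -2.18 ± 0.40, Tcl1 by -1.19 ± 0.29, and Tfcp2l1 by -1.13 ± 0.22. Nr0b1, which encodes the nuclear receptor DAX1, went from 81.3 and 75.8 against 221 and 269 CPM to 83.4 and 86 against 117 and 117 CPM (shift -1.17 ± 0.20, adjusted p = 0.00043). Klf4, Klf5, Tfcp2l1, and Nr0b1 were called higher in undifferentiated Mtf2 null cells. Of these, Klf5, Tfcp2l1, and Nr0b1 still stood above the WT level in both libraries at 5 h. Esrrb (log2 0.83) and Prdm14 (log2 0.52) were not called in undifferentiated cells. Leaving out undifferentiated WT replicate 2 ended the calls of Tcl1 (adjusted p = 0.061) and Tfcp2l1 (shift of -0.86), and leaving out undifferentiated Mtf2 null replicate 1 that of Tfcp2l1 (shift of -0.96). Of the 14 extraembryonic endoderm genes, 4 shifted downward: the shift was -1.22 ± 0.25 for Dab2, -1.14 ± 0.28 for Gata4, -1.74 ± 0.43 for Gata6, and -1.01 ± 0.21 for Sparc, while Cubn (-0.28 ± 0.28), Col4a1 (-0.72 ± 0.22), Col4a2 (-0.77 ± 0.21), Sox17 (0.28), and Amn (0.41) were not called. Dab2 (-0.99) and Gata4 (-0.97) fell under the limit without undifferentiated WT replicate 2, Gata6 missed it without WT replicate 1 at 5 h (adjusted p = 0.052), and Sparc without undifferentiated WT replicate 2 (-0.84), undifferentiated Mtf2 null replicate 2 (-0.83), or Mtf2 null replicate 2 at 5 h (-0.96). The summed level of the list went from 433 to 521 CPM in undifferentiated WT to 574 to 630 CPM at 5 h, and from 2369 to 2925 CPM to 1732 to 1828 CPM in Mtf2 null cells.

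The upward shifts also included Bnip3 and 3 genes picked singly after their values were seen, Slc16a3, Egln3, and Ndufa4l2. Bnip3, a mitophagy receptor, went from 111 and 143 CPM in undifferentiated WT to 3.7 and 4.7 CPM at 5 h, and from 22.1 and 22.4 to 10.4 and 10.5 CPM in Mtf2 null cells (shift 3.83 ± 0.33, adjusted p = 8e-07). Slc16a3, a lactate exporter, went from 115 and 93.4 to 12.3 and 9.61 CPM in WT and from 11 and 11.4 to 15.2 and 13.9 CPM in Mtf2 null cells (shift 3.62 ± 0.28, adjusted p = 4e-07). Egln3, an oxygen sensor, shifted by 3.49 ± 0.29 and Ndufa4l2 by 3.72 ± 1.00. In all 4 genes the larger part of the shift was a fall in WT, and Pcl1-3 WT undifferentiated cells were near undifferentiated WT. Scaled over the genes in both tables, Bnip3 was at 206, 178, and 28.1 CPM in Pcl1-3 WT, WT, and Mtf2 null, and Slc16a3 at 190, 146, and 14.2. Bnip3 shares 57.0% of its 31-base words with another gene, and Ndufa4l2 lost the call without WT replicate 1 (adjusted p = 0.078) or Mtf2 null replicate 2 at 5 h (adjusted p = 0.12). Vim shifted by 2.37 ± 0.34, from 116 and 74.2 against 5.79 and 5.7 CPM before induction. The largest downward shifts by the rule were those of Enpep, Gm9385, Itpr2, Ly6g6e, and Adgrd1, between -5.99 and -3.23. Itpr2, a calcium channel gene of the endoplasmic reticulum, was at 43.3 and 29.4 CPM in undifferentiated Mtf2 null cells and at 1.07 and 0.924 CPM at 5 h, beside 1.28 and 1.45 and then 0.903 and 0.627 CPM in WT. Enpep lost its call without undifferentiated WT replicate 1 or 2, WT replicate 1 or 2 at 5 h, or Mtf2 null replicate 1 at 5 h (adjusted p = 0.053 to 0.16), and Gm9385 without undifferentiated WT replicate 2 (adjusted p = 0.055), WT replicate 1 (0.052), or Mtf2 null replicate 2 at 5 h (0.087).

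Genes that WT cells switch within 5 h were taken from the endoderm series, whose libraries share nothing with the comparison above. In these, 188 genes rose (0.976%) and 217 fell (1.13%) between undifferentiated WT and WT at 5 h. Of the 188 raised genes, 24 were called higher and 9 lower in Mtf2 null cells at 5 h of the mesoderm series (12.8% and 4.79%), with a median log2 fold change of 0.08. In undifferentiated cells, where 6.47% of all genes were called higher and 4.68% lower, 70 of the same genes were called higher and 9 lower, with a median of 0.71, and the interaction was called upward for 4 and downward for 54. Of the 215 lowered genes tested, 16 were called higher and 16 lower at 5 h (median -0.07), against 10 and 60 undifferentiated (median -0.75). The difference between these counts at the 2 times was not tested. The WT change by which the genes were picked also enters the counts at both times and the interaction. Among raised genes it favors higher calls undifferentiated, lower calls at 5 h, and downward shifts, and among lowered genes the reverse. No conclusion is therefore drawn from these counts. Genes picked by their change in Mtf2 null cells were not counted. The count of genes that change in WT itself ranged from 125 without undifferentiated WT replicate 2 to 734 without undifferentiated WT replicate 1 of that series.

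Between 5 h and 24 h of the same medium the effect changed for fewer genes, 87 upward (0.474%) and 66 downward (0.359%), and the count was 53 to 90 when 1 of the 8 libraries was left out. Between the genotypes, 1051 of 18361 genes were called at 24 h and 1252 at 48 h. Of the 1388 genes called at 5 h, 769 were also called at 24 h (55.4% of the 5 h and 73.2% of the 24 h calls), all in the same direction. At 48 h 648 were called (46.7% and 51.8%), 647 in the same direction and 1 in the opposite one. The effect of several genes higher at 5 h shifted downward by 24 h. Myc was at 28.2 and 29.1 CPM in WT and 18.7 and 18.3 CPM in Mtf2 null cells at 24 h (shift -1.70 ± 0.27, adjusted p = 0.0029), and Nodal at 65.8 and 66.3 against 59.1 and 66.2 CPM (shift -1.02 ± 0.18, adjusted p = 0.0052). Lef1 (shift -1.99 ± 0.40) and Sp5 (shift -1.59 ± 0.30) reached 11.2 and 12.3 and 20.9 and 21.8 CPM in WT and 19.4 and 19.7 and 15.7 and 15.6 CPM in Mtf2 null cells. Lef1 thus remained higher in Mtf2 null cells at 24 h, while Myc and Sp5 stood below WT in both libraries. T had risen to 55.6 and 59.8 CPM in WT and to 40 and 37.6 CPM in Mtf2 null cells, so that the order of the genotypes at 5 h was not that at 24 h (shift -1.90 ± 0.50, adjusted p = 0.061, not called). Id1 (shift -1.02 ± 0.22) and Id3 (shift -1.08 ± 0.23) returned near the WT level, and Nanog shifted upward by 1.15 ± 0.17, to 233 and 213 CPM in WT and 322 and 292 CPM in Mtf2 null cells. Myc and Nanog kept their calls without each library in turn, Nodal lost it without Mtf2 null replicate 1 at 24 h or replicate 2 at 5 h (shifts of -0.94 and -0.92), and Id1 without any 1 of the 8 libraries (adjusted p = 0.056 to 0.13). Lef1 kept its call only without WT replicate 1 at 24 h (0.05 to 0.083 otherwise), Sp5 only without that library or Mtf2 null replicate 1 at 5 h (0.054 to 0.07 otherwise), and Id3 only without replicate 2 of either genotype at 24 h (0.061 to 0.13 otherwise). By the rule, the upward shifts included that of Cnn2 (2.34 ± 0.23, adjusted p = 1.2e-05), a calponin gene that was lower in Mtf2 null cells at 5 h (32.9 and 33.3 against 18.2 and 19.8 CPM) and higher at 24 h (10.1 and 8.1 against 23.2 and 29.5 CPM).

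At the same hour in endoderm medium, 1465 of 19261 genes were called between the genotypes (7.61%). Of the 1386 genes called in mesoderm medium and tested there, 1061 were called in endoderm medium, which is 76.6% of the mesoderm and 73.2% of the endoderm calls, all in the same direction, and 1383 had the same sign. The test of the difference between media, in 1 fit of the 48 libraries of both series, called 11 of 19601 genes (0.0561%), and 1023 reached an unadjusted p under 0.05. No gene of the 24 lists was among them. With DESeq2 the count was 20, and it was 2 to 8 when 1 of the 8 libraries was left out. Among the called genes were Ahcy (1.09 ± 0.21, adjusted p = 0.024), a parent gene of the copies above, and Ubash3a, a T cell signaling gene, had the opposite sign (-1.99 ± 0.32, adjusted p = 0.0067), at 10.2 and 8.77 against 1.16 and 0.853 CPM in mesoderm and 14.9 and 14.8 against 6.61 and 5.71 CPM in endoderm medium. Of the 8 called genes named here, all but Gm10073 lost the call when at least 1 library was left out. Lars2, Gm15564, and AA474408 also varied within a genotype, Lars2 from 24.8 to 583 CPM between the undifferentiated WT libraries and from 35.9 to 206 CPM between the Mtf2 null libraries at 5 h. Kansl2-ps and Gm28438 are pseudogenes.

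**Figure D5:**
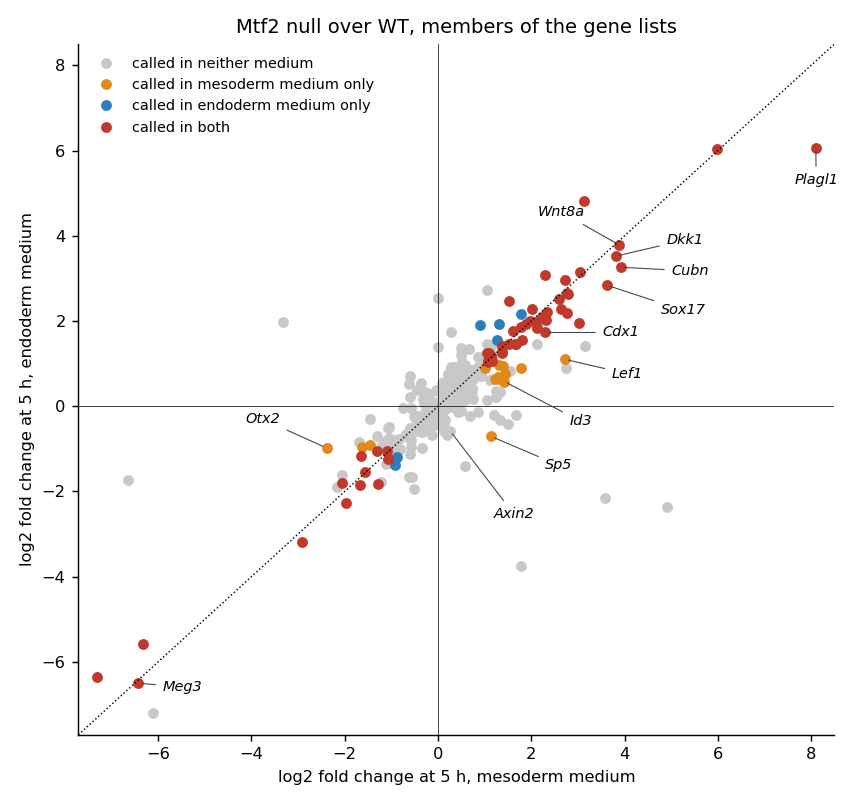
log2 fold change of Mtf2 null over WT at 5 h in mesoderm medium (horizontal axis) and in endoderm medium (vertical axis) for 291 members of the gene lists, with the diagonal dotted. Of these, 54 were called in both media (red), 14 in mesoderm medium alone (orange), 8 in endoderm medium alone (blue), and 215 in neither (grey), and Sp5 and Lef1 lie below the diagonal.

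For the endoderm genes no difference between media passed the test. Cubn was at 9.34 and 8.88 CPM in WT and 87.3 and 88.1 CPM in Mtf2 null cells in endoderm medium (log2 3.26 ± 0.17, difference between media 0.65 ± 0.28, adjusted p = 0.89), and Col4a1 differed between media by 0.28 ± 0.22. Wnt8a (log2 3.79 ± 0.46 in endoderm medium) and Dkk1 (3.52 ± 0.25) were likewise called there. The mesoderm medium holds BMP4 and a higher dose of CHIR99021, and the stated dose of Activin A differs too. Several Wnt and BMP targets are given here for both media, although none of the differences passed the test. Sp5 was at 1.93 and 1.42 CPM in WT and 1.42 and 0.645 CPM in Mtf2 null cells in endoderm medium (log2 -0.71 ± 0.48, difference 1.84 ± 0.51, adjusted p = 0.39), Axin2 at 49.6 and 50.4 against 37.7 and 29.1 CPM (log2 -0.58 ± 0.17, difference 0.84 ± 0.21, adjusted p = 0.17), and Id3 at 13.7 and 14.7 against 21.8 and 20.6 CPM (log2 0.58 ± 0.15, difference 0.83 ± 0.22, adjusted p = 0.27). Lef1 differed by 1.62 ± 0.60 (adjusted p = 0.78). Other targets had closer values in both media. Id1 had a log2 fold change of 1.00 in mesoderm and 0.89 in endoderm medium, and Tcf7 of 0.04 and -0.16. Otx2 differed in the other direction, by -1.42 ± 0.60 (adjusted p = 0.89). The media also differ in series, which cannot be told apart from the medium.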

How the data were processed

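Bulk RNA was measured in 24 libraries of the mesoderm series and 24 of the endoderm series, 2 per genotype and time. The genotypes, per the labels, are WT, Mtf2 null, and Jarid2 null. The authors deposited estimated counts per gene, not normalized (Salmon, GRCm38, per the labels, versions not given in the sources used here), and these were rounded to whole numbers. The authors' table of embryoid body lines holds a signal per gene, deposited as counts divided by size factors. It was used for 2 day 0 samples only, scaled to CPM, and 42 of its columns were not used. Totals per library at 5 h bound the counting error, which is the only error that intervals and floors cover. Genes with a count of 10 in enough libraries (edgeR's filter, minimum total 15) were tested with edgeR 4.0.16 (quasi-likelihood, TMM, Benjamini-Hochberg adjustment, R 4.3.3) in 1 fit of the 24 libraries with a mean per genotype and time. Calls took the study's thresholds (adjusted p under 0.001, log2 above 1 in size), and interactions an adjusted p under 0.05. The SE of a log2 change was its size divided by the root of F. The test was tested on simulated data. DESeq2 1.42.0, RLE scaling, other filters and thresholds, a replicate block, other sets of libraries, and leaving out each library were alternatives. The comparison, gene lists, and tests were chosen with earlier results of these data known. Named were PRC2 subunits, the 10 largest calls per direction whose libraries do not overlap, at most 6 called and 4 other members of each list, the 5 largest interactions per direction, and genes that the study names, from a mean of 5 CPM for ranked genes. Tcf7, Notum, Sfrp5, Nr0b1, Spry2, Dusp6, Fos, Cdkn1a, Fgf5, Galnt6, Egln3, Slc16a3, and Ndufa4l2 fall outside this rule and were chosen after their values were seen. Some genes that the rule names are not reported here. Shared sequence is the percent of a gene's 31-base words found in another gene's transcripts. Gene positions are from GENCODE and promoter windows from RefSeq, both on GRCm38. Figures used matplotlib 3.10.9. The single-cell files were not used here.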

Additional observations from a re-analysis of the deposited data

Results flagged for a closer look

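The Mtf2 null effect differed between undifferentiated cells and 5 h for 1097 genes, between 5 h and 24 h for 153 genes, and between the media at 5 h for 11 genes, each by an interaction test. Among the genes named, the upward shifts from undifferentiated cells to 5 h were 1.73 for Axin2, 2.59 for Sp5, 1.92 for Lef1, 1.53 for Fzd10, 1.80 for Id1, 1.67 for Myc, 2.43 for Egr1, 1.19 for Dusp1, 1.79 for Pou3f1, 1.16 for Tdgf1, 1.32 for Dnmt3a, and 2.37 for Vim on the log2 scale. Further upward shifts were 3.83 for Bnip3, 3.49 for Egln3, 3.62 for Slc16a3, and 3.72 for Ndufa4l2.

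Downward shifts were -1.61 for Klf4, -1.55 for Klf5, -1.41 for Esrrb, -1.13 for Tfcp2l1, -1.19 for Tcl1, -1.17 for Nr0b1, and -2.18 for Prdm14 among the naive genes. In the extraembryonic endoderm they were -1.22 for Dab2, -1.14 for Gata4, -1.74 for Gata6, and -1.01 for Sparc. Further values were -2.83 for the ligand gene Wnt7b, -1.34 for Inhbb, -1.28 for Pecam1, -2.29 for Tek, -2.16 for Dusp4, -1.0 for Jarid2, -1.72 for Phf19, -4.37 for Itpr2, -3.59 for Ly6g6e, -3.23 for Adgrd1, -5.99 for Enpep, and -4.68 for Gm9385. Tek, the endothelial receptor of angiopoietins, stood at 15.5 and 13.5 CPM in undifferentiated Mtf2 null cells beside 2.56 and 1.96 CPM in WT, and at 4.63 and 5.47 beside 4.34 and 3.34 CPM at 5 h. Phf19, the paralog of MTF2 in PRC2.1, stood at 31.6 and 27.4 beside 7.78 and 7.5 CPM before induction and at 9.08 and 10.7 beside 8.4 and 8.57 CPM at 5 h. The shift of Jarid2 lay at the limit and fell to between -0.82 and -0.98 without undifferentiated WT replicate 2, undifferentiated Mtf2 null replicate 1, or replicate 2 of either genotype at 5 h.

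From 5 h to 24 h the shifts were 1.15 for Nanog, -1.70 for Myc, -1.59 for Sp5, -1.99 for Lef1, -1.02 for Id1, -1.08 for Id3, -1.02 for Nodal, 2.34 for Cnn2, 2.39 for S100a13, -2.56 for Fam171b, -6.69 for Gm9770, -2.58 for Pdzd2, -2.51 for Ttc39a, and -2.50 for Usp29. S100a13 and Usp29 lost the call without any 1 of the 8 libraries (adjusted p = 0.061 to 0.21 and 0.07 to 0.2), Gm9770 unless Mtf2 null replicate 1 at 5 h was the one left out (0.09 to 0.18), and Fam171b unless it was Mtf2 null replicate 1 or WT replicate 2 at 24 h (0.058 to 0.15).

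Between the media at 5 h the differences, mesoderm minus endoderm, were -1.99 for Ubash3a, 1.09 for Ahcy, 6.66 for Lars2, 7.33 for Gm10073, 4.99 for AA474408, 10.24 for Kansl2-ps, 8.10 for Gm15564, and -11.51 for Gm28438. Ubash3a lost the call without Mtf2 null replicate 2 in mesoderm (adjusted p = 0.12) or replicate 1 in endoderm medium (0.055). Ahcy kept it only without WT replicate 2 in endoderm medium (0.058 to 0.33 otherwise). Lars2, Gm15564, and AA474408 each lost it without Mtf2 null replicate 1 in mesoderm medium (0.22, 1, and 0.32) and without 2 or 3 other libraries. Kansl2-ps lost it without 6 of the 8 libraries and Gm28438 without 7.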

How the results depend on the processing

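The 1388 calls at 5 h became 1309 with DESeq2, 1381 with RLE scaling, 1786 without the filter on low counts, 1057 with the 4 libraries alone, 1562 with the 48 libraries of both series, and 954 to 996 without 1 library. They numbered 2329 at an adjusted p under 0.05 and 585 at a log2 size above 2. Chosen after seeing the data were the fit without the libraries labelled Jarid2 null (1328) and that of genes under 20% shared sequence (1146, of which 576 higher, so that the split moved toward higher). Of the 92 genes named as called at 5 h, 67 kept the call without each library in turn. The 4 libraries alone ended the calls of Pou3f1, Otx2, Zic2, Dusp14, Bmper, and Id1.

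The 1097 shifts from undifferentiated cells to 5 h became 384 at an adjusted p under 0.001 and 832 to 1422 without 1 library. The 153 shifts from 5 h to 24 h became 374 without the filter, 15 at an adjusted p under 0.001, and 53 to 90 without 1 library. The 11 differences between media became 20 with DESeq2, 166 without the filter, 1 at an adjusted p under 0.001, 6 without the libraries labelled Jarid2 null, 5 with genes under 20% shared sequence, and 2 to 8 without 1 library. The 405 genes that changed in WT became 672 without the filter and 125 to 734 without 1 library. The cause of these changes was not tested.

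Values near 0 changed sign: Eed to 0.0004 with DESeq2 and 0.0007 with RLE scaling, Pou5f1 to -0.01 without the filter and -0.02 with the 4 libraries. Without 1 library they ranged from -0.07 to 0.04 for Ezh2, -0.14 to 0.14 for Eed, -0.03 to 0.06 for Pou5f1, -0.002 to 0.12 for Dnmt3a, and -0.62 to 0.14 for the shift of Cubn from undifferentiated cells.

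The replicate numbers did not pair the samples: the deviations of same-numbered WT and Mtf2 null libraries correlated at 0.0361 at 5 h, -0.149 undifferentiated, and -0.0213 at 24 h, across genes. With a replicate block the counts were 1357 at 5 h, 1082 and 139 for the shifts, 12 between the media, 1473 at 5 h in endoderm medium, 2017 and 2123 in the undifferentiated cells of the mesoderm and endoderm series, and 420 in WT. With 2 libraries per group, genes near 1 CPM such as T and Mixl1 gave SEs of 0.44 and 0.51.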

Other observations

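The day 0 sample that the labels of the embryoid body experiment give as mtf2ko differed from the Mtf2 null libraries of the mesoderm series in the genes that mark the lines. Mtf2 was at 322 and 333 CPM in its 2 runs, beside 445 and 434 in Pcl1-3 WT, and was thus not depleted as in the mesoderm series. Hprt was at 0.202 and 0.146 CPM, beside 130 and 122, and Eno1b at 1902 and 1813, beside 0.415 and 0. Zfp42 was at 351 and 366 CPM, beside 68.6 and 65. These values go against the label, which may be wrong, so that the sample is called the one labelled mtf2ko. It is 1 sample read in 2 runs, so that no test was made and no value of it enters the comparisons above.

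Of the 551 genes called higher at 5 h and listed at 1 CPM in that table, 36 had a log2 ratio of the sample labelled mtf2ko over Pcl1-3 WT above 1 and 200 below -1 (median -0.62), and of 678 called lower, 277 lay above 1 and 18 below -1 (median 0.81). Over all 14114 genes, 1145 lay above and 1411 below (median -0.04). Extraembryonic endoderm genes had 8 of 13 above 1 and 0 below -1 (median 1.69): Cubn stood at 35.6 and 38.4 CPM beside 1.38 and 1.97, and Gata4 at 18 and 19 beside 0.83 and 0.911. Of 15 Wnt feedback and target genes, 1 lay above and 2 below (median -0.72).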
